A study of Mus musculus with 34 samples.

Results

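Lungs of mice instilled with 18 µg of NRCWE-043 were compared with lungs of mice instilled with the same dose of NRCWE-045, across all genes on the array. The comparison holds 8 of the 34 arrays of the series, 5 with NRCWE-043 and 3 with NRCWE-045, chosen by material and dose alone. The protocol states 5 per group, but NRCWE-045 at 18 µg has 3 arrays here and NRCWE-044 at 18 µg has 6. NRCWE-043, NRCWE-044 and NRCWE-045 are code names of carbon nanotube (CNT) materials. All mice were female C57BL/6 animals of 5 to 7 weeks, each given a single intratracheal instillation in 40 µl, and lungs were taken on day 28. The 5 control arrays and the 5 arrays of each of NRCWE-043 and NRCWE-045 at 54 µg serve here as reference groups of the same strain, sex and day. The vehicle given to the control mice is not stated in the labels, and the title of 1 control array names NRCWE-043 at 0 µg. RNA came from random sections of whole lung, so a lower level of a cell type's transcripts cannot be told apart from fewer such cells; liver and heart were removed from the same animals. Nothing in the labels says that RNA was pooled. The p-values of single genes rest on a spread shared by all 34 arrays of the series, while permutation p-values use the 8 compared arrays alone.

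Carbon nanotubes that settle in the alveoli are taken up by macrophages and are known in rodents for lasting inflammation, lipid-laden macrophages and fibrosis. Lung makes little albumin, fetuin or apolipoprotein, which hepatocytes secrete in bulk, and adiponectin is made by fat cells, which lie around the heart, the hilum and the mediastinum. Airway secretory cells make BPI-fold and secretoglobin proteins, and transcripts that follow the body clock move with the hour of sampling.

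Each array carried lung RNA in Cy5 (red) against a common mouse reference RNA of 11 cell lines in Cy3 (green), so a value is a log2 ratio of lung to reference and a difference is NRCWE-043 minus NRCWE-045. A unit is a gene, or a transcript with no gene name, read from its brightest probe, and 29352 units (17192 of them named genes) were measurable. Across the 34 arrays 52.2% to 69.4% of probes were well above background in Cy5, and no spot was saturated. Spots flagged as non-uniform were most frequent on replicate 3 of NRCWE-043 at 18 µg, at 0.180%. The next highest share was 0.027%, on replicate 3 of NRCWE-045 at 18 µg. Correlations of all units between arrays ran from 0.924 to 0.972 within NRCWE-043, from 0.927 to 0.938 within NRCWE-045, and from 0.895 to 0.966 between the groups. The precision is limited by the number of arrays: the median standard error of a difference was 0.13, and the median 95% confidence interval reached 0.265 to either side.

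The promoters of 5 genes that the results turn on are shown first: albumin (Alb) and fetuin-A (Ahsg), which stand for the liver transcripts, and Acot1, Acot2 and Plin2, the 3 named genes that were called higher with NRCWE-043. Each line gives the 250 bases before the gene's start, 5′ to 3′, from RefSeq (GRCm38.p6). Capitals mark 3 motifs searched on both strands: GTTAATNAT, an HNF1 half-site; TTGCNNAA, a C/EBP site; and DR1, 2 copies of AGGNCA with 1 base between them, an element of the kind nuclear receptors bind. No 2 matches overlapped.
Alb (chr5:90460620-90460869, plus strand): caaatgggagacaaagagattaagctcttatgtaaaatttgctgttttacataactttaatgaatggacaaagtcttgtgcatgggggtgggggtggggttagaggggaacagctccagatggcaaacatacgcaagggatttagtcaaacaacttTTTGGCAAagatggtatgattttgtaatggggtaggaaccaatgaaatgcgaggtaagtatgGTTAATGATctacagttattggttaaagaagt
Ahsg (chr16:22891765-22892014, plus strand): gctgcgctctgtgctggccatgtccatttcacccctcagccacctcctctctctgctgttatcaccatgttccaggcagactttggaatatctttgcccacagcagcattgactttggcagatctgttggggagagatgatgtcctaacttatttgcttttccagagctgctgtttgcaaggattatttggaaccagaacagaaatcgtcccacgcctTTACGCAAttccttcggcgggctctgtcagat
Acot1 (chr12:84009252-84009501, plus strand): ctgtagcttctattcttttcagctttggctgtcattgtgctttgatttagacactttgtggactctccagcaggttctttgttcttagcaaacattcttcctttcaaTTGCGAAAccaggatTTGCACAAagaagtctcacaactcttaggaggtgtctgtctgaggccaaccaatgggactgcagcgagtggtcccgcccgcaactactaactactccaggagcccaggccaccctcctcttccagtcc
Acot2 (chr12:83987611-83987860, plus strand): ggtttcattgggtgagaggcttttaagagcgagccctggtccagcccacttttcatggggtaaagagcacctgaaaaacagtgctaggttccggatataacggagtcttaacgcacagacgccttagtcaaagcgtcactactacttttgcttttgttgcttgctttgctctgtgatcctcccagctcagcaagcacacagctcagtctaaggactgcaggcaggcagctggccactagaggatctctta
Plin2 (chr4:86670060-86670309, minus strand): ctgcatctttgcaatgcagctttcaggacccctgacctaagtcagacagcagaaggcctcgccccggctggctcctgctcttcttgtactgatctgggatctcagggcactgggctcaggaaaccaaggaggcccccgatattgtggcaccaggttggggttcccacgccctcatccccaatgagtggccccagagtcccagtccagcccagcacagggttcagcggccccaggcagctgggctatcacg

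The HNF1 half-site stood only in Alb among the 5, with its last base 23 bases before the gene's first, and 0.737% of 32851 promoters of this length hold one. C/EBP sites were found in Alb, Ahsg and Acot1, the last with 2, against 9.56% of all promoters, and the DR1 element in none of the 5, against 0.338%. Acot1 and Acot2 lie on the same strand of chromosome 12. A match is a description of the letters and says nothing of binding.

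Liver transcripts separated the groups. Albumin is the main plasma protein, and its level on the 5 NRCWE-043 arrays was 0.41, 0.20, 0.34, 0.10 and 0.27, against 2.21, 5.32 and 1.48 on the 3 NRCWE-045 arrays. All 3 NRCWE-045 arrays were higher than all 5 NRCWE-043 arrays and than the 5 controls, which ran from 0.42 to 0.70. The difference for Alb was -2.74 ± 0.58 (SE; limma, adjusted p = 0.0272 by Benjamini-Hochberg over all units, and 0.0486 with slide as a block). That SE comes from a spread shared by all 34 arrays. The SD of Alb itself was 0.12 with NRCWE-043 and 2.04 with NRCWE-045. Apoc3, an apolipoprotein of very-low-density lipoprotein, was measured at 0.13, -0.07, 0.11, -0.11 and 0.01 against 1.50, 5.20 and 0.49. It was not well above background on any NRCWE-043 array, so a bound was taken from the Cy5 signal alone, after scaling between arrays, which is open to dye bias. On that scale Apoc3 was lower by at least 2.94 (log2), while the fitted difference of the Cy5/Cy3 ratios was -2.38 (adjusted p = 0.0421, and 0.0607 with slide as a block). Ahsg, a secreted carrier protein, had 0.87, 0.24, 0.49, 0.29 and 0.53 against 1.85, 5.55 and 1.20, a difference of -2.38 ± 0.57 that missed the threshold (adjusted p = 0.0504).

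The mean of these 3 genes, the liver score, was 0.47, 0.12, 0.31, 0.09 and 0.27 with NRCWE-043 and 1.86, 5.35 and 1.06 with NRCWE-045. The group means were 0.253 ± 0.154 (SD, n = 5) and 2.76 ± 2.29 (SD, n = 3), a difference of -2.50, with a two-sided exact permutation p = 0.0357, the smallest that 56 splits of these arrays can give. Replicate 2 of NRCWE-045 stood far above the other two. Controls ran from 0.296 to 0.568, so the NRCWE-043 arrays lay within or below the control range and the NRCWE-045 arrays above it. Between 1 array of each material on slide 1 the difference was -1.39, and on slide 2, with 2 arrays against 1, it was -5.14.

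The fat score, the mean of Adipoq (adiponectin) and Car3 (carbonic anhydrase 3, abundant in adipocytes), was 1.16, -0.03, -0.24, 1.51 and 0.78 with NRCWE-043 and 6.01, 4.24 and 0.37 with NRCWE-045. Here the groups overlapped, because replicate 3 of NRCWE-045 had a low value. The means were 0.638 ± 0.756 (SD, n = 5) and 3.54 ± 2.89 (SD, n = 3), a difference of -2.90 with exact permutation p = 0.143 (two-sided). Controls spread from 0.03 to 3.73, so the fat score varied widely without any material. Adipoq differed by -2.58 ± 1.24 and Car3 by -3.22 ± 1.38, neither past the threshold (adjusted p = 0.452 and 0.382).

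**Figure D1:**
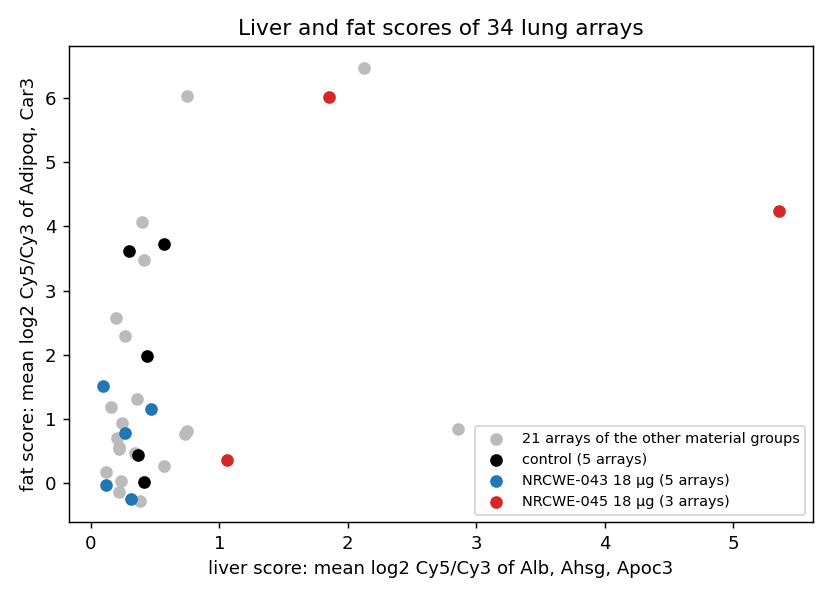
Liver score (horizontal) against fat score (vertical), both mean log2 Cy5/Cy3, for each of the 34 lung arrays. The 3 NRCWE-045 arrays (red) lie at liver scores of 1.06 to 5.35, right of the 5 NRCWE-043 arrays (blue) at 0.09 to 0.47, while 1 of the 3 shares the low fat scores of the NRCWE-043 arrays.

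Across all genes, 127 of 29352 units passed an adjusted p of 0.05, 0.433% of those tested: 4 were higher (0.0136%) and 123 lower (0.419%) with NRCWE-043. Of these, 63 were named genes. At an unadjusted p under 0.05 there were 1008 higher (3.43%) and 2137 lower (7.28%), and the arrays of the 2 groups did not overlap for 571 higher (1.95%) and 1089 lower (3.71%), 5.66% in either direction. With slide as a block, 21 units passed, 1 of them higher, and 17 of the 21 were among the 127. Fitted on the 8 compared arrays alone, 0 units passed (limma, smallest adjusted p = 0.0992), with 2483 at an unadjusted p under 0.05 (8.46%). Both materials were also set against the same 5 controls, where 0 units passed for either: 1280 units had an unadjusted p under 0.05 for NRCWE-043 (4.36%; limma) and 2330 for NRCWE-045 (7.94%).

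The 127 units fell into sets that the scores and 1 further transcript describe. Over the 26 arrays outside the comparison, centred on their groups, 8 of the called units correlated at 0.7 or more with the liver score and 2 with the fat score. Another 62, all lower with NRCWE-043, were the small RNA Rn4.5s or correlated with it at 0.7 or more. The remaining 55 comprised 51 lower and 4 higher units. The Rn4.5s set was formed after the calls were seen and is a description. The liver and fat links rest on few arrays: without the 2 arrays farthest from the median of each score, 1 called unit kept each link.

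**Figure D2:**
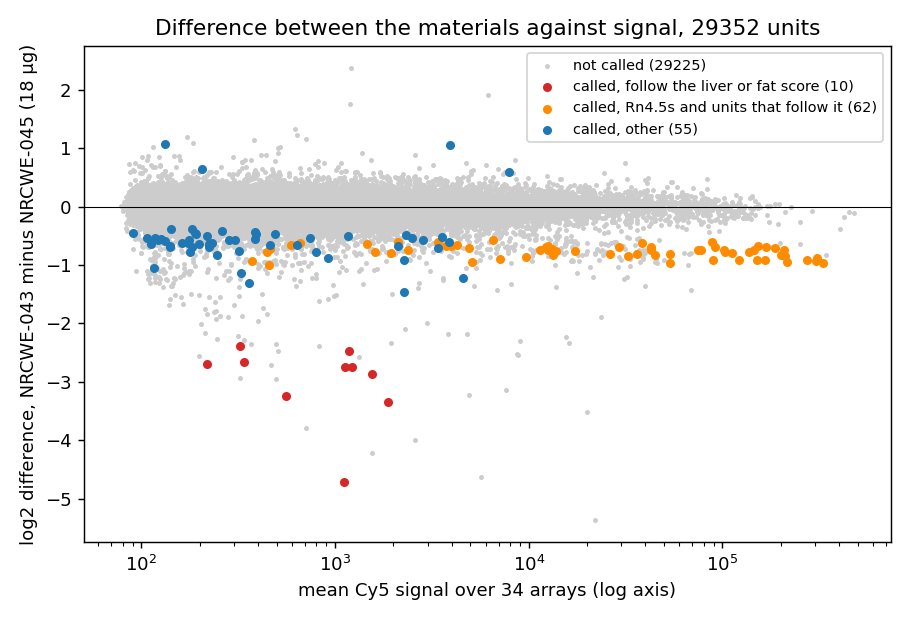
Log2 difference, NRCWE-043 minus NRCWE-045 at 18 µg (vertical), against mean Cy5 signal over 34 arrays (horizontal, log axis); each point is 1 of 29352 units. The 10 called units that follow the liver or fat score (red) lie at -2.38 or below, and the 62 that are Rn4.5s or follow it (orange) form a band at and below -0.57 that runs to the brightest units.

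Of the named genes called, those of the liver set had the largest differences. Serpina1a encodes alpha-1-antitrypsin, the plasma inhibitor of neutrophil elastase; its levels were 0.27, 0.25, -0.10, 0.32 and 0.42 against 2.85, 5.67 and 2.22, a difference of -3.35 ± 0.67 (adjusted p = 0.0272, and 0.0479 with slide as a block). Its close copies Serpina1c and Serpina1e differed by -2.87 and -2.48, but the copies are so alike that their probes may share signal. Ambp, the precursor of alpha-1-microglobulin, was measured at -0.32, -0.31, 0.03, -0.24 and -0.56 against 1.07, 7.00 and 0.79, a difference of -3.23 ± 0.76 (adjusted p = 0.0449, and 0.0626 with slide as a block). Mup5, a major urinary protein, went with the fat score over the other arrays. It was well above background on 2 of the 3 NRCWE-045 arrays and none of the NRCWE-043 arrays. Its fitted difference was -2.69 in the ratio. In the Cy5 signal alone it was lower by 2.86 (log2). That value is not a strict minimum, since the remaining NRCWE-045 array was itself not well above background. Apoa2, an apolipoprotein of high-density lipoprotein, differed by -1.45 ± 0.31 (adjusted p = 0.0272, and 0.0605 with slide as a block) without reaching the link of 0.7 with the liver score.

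The other liver genes went the same way. Of 34 measured, none of them a score gene, 34 had a negative difference. An unadjusted p under 0.05 was found for 29, and 3 passed the adjusted threshold, Ambp and Apoa2 among them. Over all units 7.28% were lower and 3.43% higher at that unadjusted threshold, and 0.419% were called lower. The median of the 34 was -1.22, against -0.01 over all units. Without replicate 2 of NRCWE-045 that median was -0.19, and without replicate 3 it was -1.71. With both scores as covariates the median was 0.17. The scores are means of liver and fat genes on the same arrays. Smaller differences of other liver and fat genes with the scores therefore follow from adding them and are not a separate result. Of 25 other adipocyte genes, 8 were lower and 0 higher at an unadjusted p under 0.05, with a median of -0.47 (-0.19 without replicate 1 of NRCWE-045), and 0.17 with the scores; none passed the adjusted threshold. Pck1, an enzyme of glyceroneogenesis, had the smallest p of these, with 0.36, -0.07, 0.26, 0.44 and 0.28 against 3.05, 4.13 and 0.25, the third array again low.

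Among airway secretory genes Bpifa1 and Reg3g had larger differences than any of the liver genes listed, but none of the 13 passed the adjusted threshold. Bpifa1, a secreted protein of the airway lining, was measured at 1.55, 0.31, 1.27, 1.69 and 0.33 with NRCWE-043 and 7.77, 8.27 and 3.13 with NRCWE-045, a difference of -5.36 ± 1.71 (adjusted p = 0.16). The groups did not overlap, but the controls spread from 0.98 to 7.26. Reg3g, an antibacterial lectin, had 0.35, -0.09, 0.32, 1.25 and -0.01 against 7.18, 6.80 and 1.01. All 13 secretory genes measured were lower with NRCWE-043, 5 of them at an unadjusted p under 0.05, against 7.28% of all units. Against the controls the median of the list was -0.77 with NRCWE-043 and 0.08 with NRCWE-045. The median of the 13 between the materials, -0.78, became -0.02 with the scores as covariates. Over the arrays outside the comparison 7 of the 13, Bpifa1 and Reg3g among them, went with the fat score at 0.7 or more. That shift is therefore not separate from the fat score. Heart muscle genes had a median of -0.71 over 18 members and 1.19 with the scores, with 0 of 18 past an unadjusted p of 0.05 before the scores entered. With the scores all 18 were above 0 and 3 were higher at that threshold, against 2.65% of all units. Over the other arrays 15 of the 18 went with the fat score at 0.7 or more, so the change of sign is not separate from that score. In the fit without the scores, leaving out replicate 2 of NRCWE-045 gave a median of 0.00, so the -0.71 rests on that array. Markers of alveolar type 2 cells, type 1 cells and endothelium had medians of -0.02, 0.00 and 0.04. The mean level of the type 2 markers was 4.87 to 5.03 with NRCWE-043 and 4.69 to 5.01 with NRCWE-045, high in all 8 lungs.

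With both scores as covariates, 0 of 29347 units passed the adjusted threshold (limma; smallest adjusted p = 0.093), while 2394 had an unadjusted p under 0.05 (8.16%; 2.65% higher and 5.5% lower). The median standard error rose from 0.13 to 0.168. The sets linked to the scores were chosen by the same scores, 2 of their units being score genes, so their smaller differences here follow from that choice: the median of the 8 liver units went from -2.75 to -0.27 and that of the 2 fat units from -3.71 to -0.48. The 62 units of the Rn4.5s set had a median of -0.75 without and -0.78 with the scores, and 62 of 62 kept an unadjusted p under 0.05. Of the other 55, 51 did, with medians of -0.58 and -0.59.

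**Figure D3:**
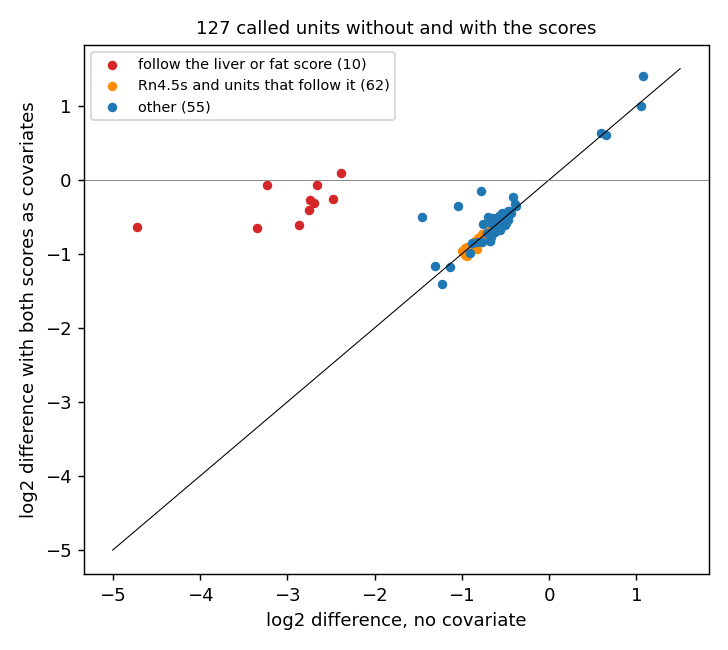
Log2 difference of the 127 called units without covariates (horizontal) and with the liver and fat scores as covariates (vertical); the diagonal marks equal values. The 10 units in red were chosen by their correlation with the scores and lie nearer 0 with them; with the scores the medians were -0.78 for the Rn4.5s set and -0.59 for the remaining units.

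Rn4.5s is 4.5S RNA, a short, abundant rodent RNA. Its level was 1.74, 1.76, 1.16, 2.53 and 1.54 with NRCWE-043 and 2.47, 2.62 and 2.69 with NRCWE-045, with controls from 1.57 to 2.32. Replicate 4 of NRCWE-043 lay within the NRCWE-045 range and the other 4 below it. The difference was -0.85 ± 0.20 (adjusted p = 0.049, and 0.0707 with slide as a block), and -0.83 ± 0.26 with the scores. Besides Rn4.5s itself, 106 of the units tested (0.361%) correlated with it at 0.7 or more over the other 26 arrays. Of the 106, 104 were below 0, with a median of -0.69, against 15412 of all 29352 units. Called were 61, against 0.433% of all units. The 106 were picked for following Rn4.5s, so these counts repeat its difference. The median of the 106 was -0.21 for NRCWE-043 and 0.51 for NRCWE-045 against the shared controls.

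These units were bright. Their median Cy5 signal was 11788, against 288 over all units, and 24 called units were among the brightest 1% of units, where the median of all 294 units was -0.05. Kctd14, a potassium channel tetramerisation domain protein, had one of the brightest probes at 331675 and levels of 2.48, 2.40, 1.67, 2.97 and 2.18 against 3.11, 3.31 and 3.49, a difference of -0.97 ± 0.20 (adjusted p = 0.0272). Med16, a Mediator subunit, differed by -0.95 ± 0.19 (adjusted p = 0.0272). Csf3r, the receptor of granulocyte colony-stimulating factor, differed by -0.96 ± 0.20, and Siglech, a marker of plasmacytoid dendritic cells, by -0.83 ± 0.18. With slide as a block none of these 4 passed, with adjusted p = 0.063 for Kctd14 and 0.0626 for Med16, Csf3r and Siglech. The same ordering of arrays recurred in these genes, with replicate 3 lowest and replicate 4 highest among the NRCWE-043 arrays.

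Most other probes of the same genes had smaller differences. For 19 genes of the Rn4.5s set the array held 26 further measurable probes: 15 had the sign of the called probe and 4 of them an unadjusted p under 0.05, with a median absolute difference of 0.16. Med16's second probe differed by 0.22, 3 further probes of Ttc38 by 0.10, -0.09 and 0.15 where the called probe gave -0.92, and Siglech's second probe by -0.16. The 4 probes past that threshold were those of Coa8 (-0.52), Medag (-0.50), Mlxipl (-0.94, with -0.78 for its called probe) and Rab3c (-0.78, with -0.64), the last 2 larger than the called probe. These calls are therefore given as values of single probes. With the Rn4.5s level as a covariate, an alternative chosen after seeing the data, 0 units passed (limma; 890, or 3.03%, at an unadjusted p under 0.05), and the median of 126 called units was -0.24.

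The Rn4.5s units also differed at 54 µg, in arrays that the comparison at 18 µg does not hold. There Rn4.5s ran from 1.56 to 2.18 on 5 NRCWE-043 arrays and from 2.14 to 2.43 on 5 NRCWE-045 arrays, a difference of -0.52 (unadjusted p = 0.00587, from the limma fit), with the ranges overlapping slightly. Of the 106 units, 104 were below 0 at 54 µg, with a median of -0.37, and 89 had an unadjusted p under 0.05, against 3.21% lower and 1.9% higher over all units. The 26 arrays over which these units were picked, centred on their groups, include the 54 µg arrays. Units picked for following Rn4.5s move with it, so the counts repeat the difference of Rn4.5s and are not separate evidence.

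**Figure D4:**
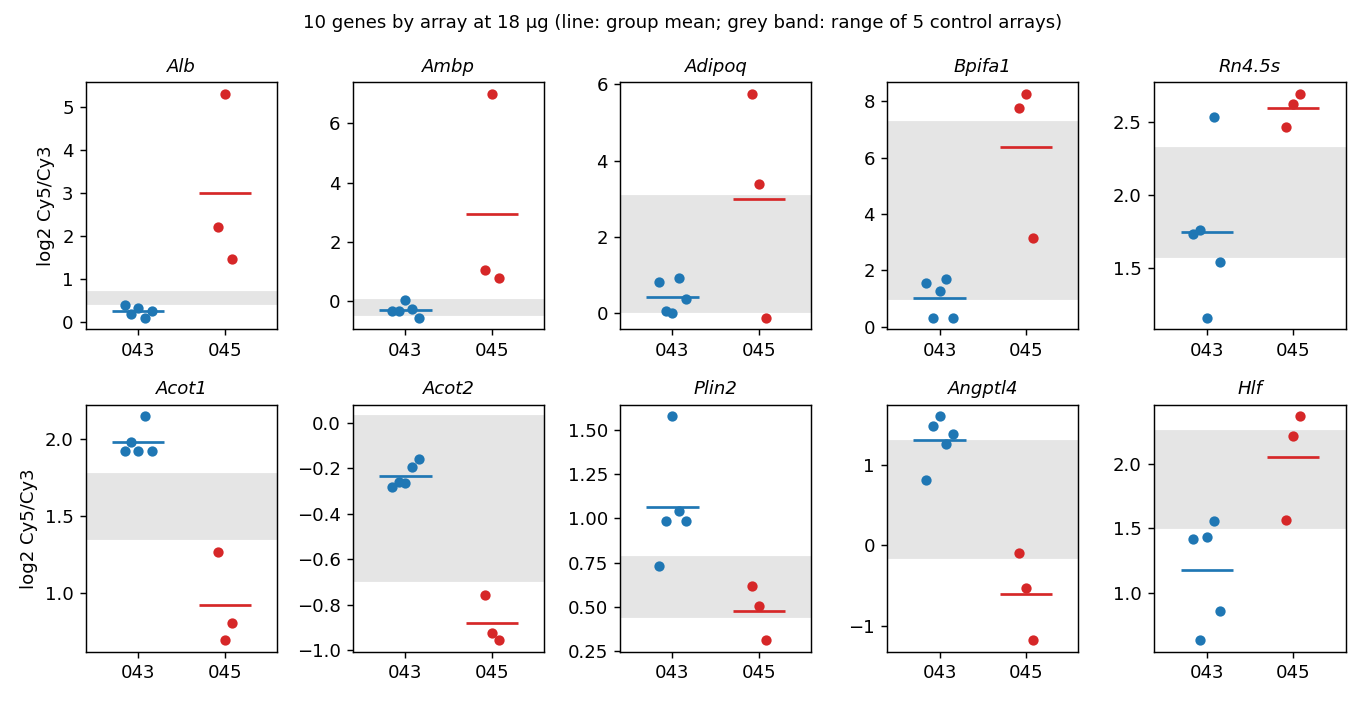
Log2 Cy5/Cy3 of 10 genes on each array at 18 µg, 5 with NRCWE-043 and 3 with NRCWE-045; the horizontal line is the group mean and the grey band the range of the 5 controls. Alb and Ambp are high on all 3 NRCWE-045 arrays, Adipoq on 2 of 3, and Acot1, Acot2, Plin2 and Angptl4 are higher on all 5 NRCWE-043 arrays.

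The named genes that were higher with NRCWE-043 than with NRCWE-045 were 3 genes of fatty acid handling, and none of them passed against the controls for either material. Acot1, a cytosolic acyl-CoA thioesterase, was measured at 1.92, 1.98, 1.92, 2.15 and 1.92 against 1.27, 0.69 and 0.81, with controls from 1.35 to 1.77. All 5 NRCWE-043 arrays lay above the controls and all 3 NRCWE-045 arrays below them. The difference was 1.06 ± 0.23, or 2.08-fold (adjusted p = 0.0306, and 0.0605 with slide as a block); against the controls it was 0.40 with NRCWE-043 and -0.65 with NRCWE-045. Acot2, its mitochondrial counterpart, had -0.28, -0.26, -0.27, -0.19 and -0.16 against -0.76, -0.92 and -0.96, a difference of 0.65 ± 0.12 (adjusted p = 0.0198, and 0.0479 with slide as a block). Its NRCWE-043 arrays lay inside the control range of -0.70 to 0.03, with differences from the controls of 0.20 for NRCWE-043 and -0.45 for NRCWE-045. The 2 genes are close copies whose probes may share signal. Plin2, a coat protein of lipid droplets that marks foamy macrophages, had 0.73, 0.99, 1.58, 1.04 and 0.99 against 0.62, 0.50 and 0.31, a difference of 0.59 ± 0.14 (adjusted p = 0.049, and 0.0905 with slide as a block); against the controls it was 0.48 with NRCWE-043 and -0.11 with NRCWE-045.

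These 3 kept their size when the scores entered, with differences of 1.00 for Acot1, 0.61 for Acot2 and 0.64 for Plin2, though none then passed the adjusted threshold. Hilpda, a lipid droplet protein, differed by 0.80 ± 0.20 without passing (adjusted p = 0.06), as did Angptl4, an inhibitor of lipoprotein lipase. Angptl4 had 0.81, 1.48, 1.61, 1.26 and 1.39 against -0.10, -0.53 and -1.18, a difference of 1.91 ± 0.50 (adjusted p = 0.0678). Its controls ran from -0.16 to 1.29, overlapping the NRCWE-043 arrays. Of the other genes named by the rule, 1810013L24Rik, Zbtb48, Magohb, Tmem45a and Ccnjl had differences of 0.34, 0.59, 0.31, 0.45 and 0.85, none past the threshold. At 54 µg the difference was 0.55 for Acot1 (unadjusted p = 0.00983, limma), 0.08 for Acot2 and 0.18 for Plin2.

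Outside the liver and fat links, 4933438K21Rik, a transcript with no assigned function, differed by -1.31 ± 0.26 (adjusted p = 0.0272, and 0.0626 with slide as a block). Against the controls it was -0.25 with NRCWE-043 and 1.06 with NRCWE-045. With the scores, genes with the smallest p included the lower Nr5a1, Rhobtb1 and Ms4a4c at -0.61, -0.59 and -0.90, and Mei4, which was not well above background on any NRCWE-043 array and was lower by at least 0.53 (log2) in the Cy5 signal alone. The higher ones were 2210016F16Rik, Gper1 and Kif26b at 0.93, 0.86 and 0.62, along with Acot2 and Plin2.

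Genes of the foamy macrophage and lysosome list did not move as a whole: of 24 measured, 4 were higher at an unadjusted p under 0.05 (Plin2, Cd36, Ctsd and Hexa) and 0 lower, with a median of 0.03 (all units 3.43% higher and 7.28% lower); leaving out 1 array moved the median between -0.06 and 0.19. Cd36, a fatty acid and lipoprotein scavenger receptor, differed by 0.49 and Ctsd, a lysosomal protease, by 0.47, neither past the adjusted threshold. Of 25 matrix and fibrosis genes 5 were higher at an unadjusted p under 0.05, with a median of 0.12 that was 0.05 without replicate 2 of NRCWE-045. Loxl1, which crosslinks elastin, had 0.04, 0.51, 0.32, 0.22 and 0.66 against 0.17, -0.50 and -0.77 (difference 0.72 ± 0.21, adjusted p = 0.12), and Fbn1, a microfibril protein, differed by 0.45 ± 0.14 (adjusted p = 0.131). The Loxl1 groups overlapped, and between the arrays on slide 1 its difference was -0.14.

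Of 17 clock genes measured, 5 were lower and 2 higher at an unadjusted p under 0.05, against 7.28% lower and 3.43% higher over all units. Their median was -0.33, or -0.16 without replicate 3 of NRCWE-045 and -0.56 without replicate 1. Hlf, an output factor of the clock, had 1.42, 0.64, 1.43, 1.55 and 0.86 against 1.57, 2.21 and 2.37, a difference of -0.87 ± 0.22 (adjusted p = 0.0571). Tef and Dbp, of the same family, differed by -1.04 and -2.22, and Arntl (Bmal1), which peaks at the other phase, by 1.32. The hour at which lungs were taken is not in the labels, so its part was not tested. At 54 µg Hlf differed by -0.96 and Tef by -1.20.

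Among immune cells, 16 of 17 B cell and plasma cell genes were below 0, with a median of -0.28, and 2 of 17 had an unadjusted p under 0.05, against 7.28% of all units. The median rests on replicate 1 of NRCWE-045: without it, it was 0.09. Cd22, an inhibitory receptor of B cells, differed by -0.64 ± 0.16 (adjusted p = 0.0514, and 0.0479 with slide as a block), with 1.03, 0.57, 0.59, 1.11 and 1.08 against 1.77, 1.20 and 1.57. Ms4a1, which encodes CD20, differed by -0.72, most on replicate 1 of NRCWE-045 at 1.28. Of 25 interferon-induced genes, 3 were lower and 1 higher at an unadjusted p under 0.05, with a median of -0.21; over all units 7.28% were lower and 3.43% higher at that threshold, so the list's counts are near the background. Ifi27l2a was between 1.49 and 1.64 on the NRCWE-043 arrays and at 3.09, 1.66 and 2.97 on the others. Alveolar macrophage, T cell and dendritic cell lists had medians of 0.16, -0.06 and 0.00, the first 0.01 without replicate 2 of NRCWE-045. Of 13 acute-phase genes 4 were lower at an unadjusted p under 0.05, with a median of -0.22 (-0.12 without replicate 5 of NRCWE-043). With the scores 1 was lower at that threshold, with a median of -0.12. Orm2, which went with the fat score over the other arrays, differed by -1.66 and by -0.24 with the scores. Pigr differed by -0.76 and by -0.74 with them. Of 17 immediate early genes 16 were above 0, with a median of 0.22 (0.13 without replicate 5 of NRCWE-043) and 1 at that threshold. Neutrophil genes had a median of -0.12 that was 0.29 without replicate 1 of NRCWE-045.

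A panel of 21 genes known to respond to particles in the lung gave 2 with an unadjusted p under 0.05, Saa1 (-0.68) and Arg1 (-0.94), and a median of -0.01; 10.7% of all units passed that threshold, so the panel's count is near the background. Both rest on replicate 2 of NRCWE-045, the array with the highest liver score: Arg1 was 3.68 there and 0.55 and 0.64 on the other two, against 0.46 to 0.86 with NRCWE-043, and without it the difference was 0.09. Saa1 went from -0.68 to -0.19 without that array. The other 19, read from their brightest probes, did not pass even this threshold, and their intervals say how large a difference the arrays leave possible. A further, dimmer probe of Hmox1 differed by 0.58 (unadjusted p = 0.0366, limma), where its brightest probe gave -0.01. For Ccl2, a monocyte chemokine, the difference was 0.03 (95% interval -0.69 to 0.75), for Timp1, an inhibitor of metalloproteases, -0.04 (-0.47 to 0.40), for Col1a1, fibrillar collagen, -0.07 (-0.55 to 0.41), and for Spp1, osteopontin, 0.22 (-0.28 to 0.73). Chil3, a chitinase-like protein of macrophages, had an interval of -0.92 to 1.89, and its levels ran from 6.12 to 9.34 within NRCWE-043.

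Leaving out each array in turn showed how far the count rests on single arrays. Without replicate 2, 3 or 5 of NRCWE-043, or replicate 2 of NRCWE-045, 0 units passed, with 2730, 2562, 2770 and 3183 at an unadjusted p under 0.05 (limma). Without replicate 4 of NRCWE-043, the array whose Rn4.5s level lay with those of NRCWE-045, 436 units passed, all 127 among them, and without replicate 1 of NRCWE-043 it was 165. Without replicate 1 of NRCWE-045, the array with the highest fat score, 321 passed, 109 of them among the 127, and without replicate 3 of NRCWE-045 it was 140, only 30 of them shared. With the scores as covariates, 216 units passed without replicate 4 of NRCWE-043 and 249 without replicate 1 of NRCWE-045, against 0 in the other 6 fits.

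**Figure D5:**
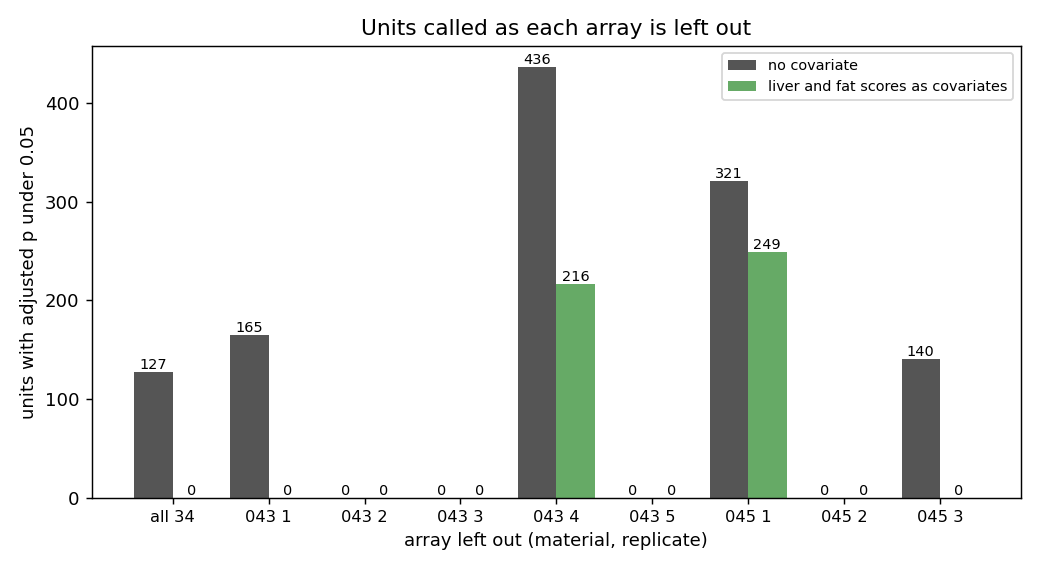
Number of units with adjusted p under 0.05 (vertical) when no array or 1 of the 8 arrays is left out (horizontal), without covariates (grey) and with the liver and fat scores (green). The count is 0 for 4 of the 8 arrays left out and reaches 436 without replicate 4 of NRCWE-043.

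The liver score kept its sign in each of these: it differed by -3.35 to -1.20, smallest without replicate 2 of NRCWE-045, and the fat score by -4.49 to -1.66. Other lungs of the series with high scores were seen in the 54 µg groups of more than 1 material. With NRCWE-045 the liver score reached 2.85 and, on another array, the fat score 6.03. Replicate 1 of NRCWE-044 had a liver score of 2.13 and a fat score of 6.47.

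Whether the difference between the materials depended on dose was tested as the difference between the contrasts at 18 and 54 µg. 0 of 29352 units passed (limma, smallest adjusted p = 0.999), with 869 at an unadjusted p under 0.05 (2.96%). At 54 µg 1 unit passed (0.00341%), and 1500 had an unadjusted p under 0.05 (5.11%). Alb differed by -0.85 at 54 µg against -2.74 at 18 µg (unadjusted p = 0.0195 for that difference, adjusted p = 0.999). Of 25 interferon-induced genes, 15 had an unadjusted p under 0.05 for the difference between doses, with medians of -0.21 at 18 µg and 0.46 at 54 µg. Of the 34 other liver genes 18 did, with medians of -1.22 and -0.14. By contrast, 0 of 18 heart muscle genes and 0 of 17 clock genes did. The lists were not tested as sets.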

How the data were processed

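Two-colour Agilent arrays of 34 lungs were read from scanner files; per the file headers the deposited intensity values are median spot and local background signals from Agilent Feature Extraction 11.0.1.1. The authors' deposited table of log2 ratios was used as an alternative only, since its normalization is not given in the sources used here; its column medians were -0.041 to -0.004. Signals were corrected with normexp (offset 50) and loess-normalized within arrays in limma 3.58.1 (R 4.3.3), with non-uniform spots left out and lung in Cy5, without dye swap, so dye bias is not balanced. Of 55681 probes, 27235 were named through RefSeq accessions (GRCm38.p6). A gene was read from its brightest probe, and units that the Cy5 flags placed well above background on 3 or more arrays were tested. The fit held all 34 arrays in 7 groups, and p-values were adjusted by Benjamini-Hochberg over all units. Probes below background on every array of a group are given as bounds in Cy5 signal after Aquantile, against the dimmest probe above background. Scores were tested by exact permutation. The scripts were tested on simulated data. The comparison, gene lists (713 entries in 42 lists) and the rule for named genes (the 10 largest called differences in each direction, filled by p among non-overlapping genes; 5 in each direction with the scores; 2 from each list; a fixed panel) were chosen with earlier results of these data known. Alternatives tried were slide block, processed signals, the deposited table, Aquantile, dim-probe filters, probe means, array weights, single scores and leaving out arrays. Results for some genes are not reported here.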

Additional observations from a re-analysis of the deposited data

Results flagged for a closer look

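Among 168 genes examined in the 5 NRCWE-043 arrays at 18 µg, 11 had 1 array far from the other 4 by Dixon's ratio (critical value 0.71); chance flags about 1 gene in 20. Replicate 3 was the high array for 6 of them: Ccl7 (ratio 0.867; -2.20 against a group median of -4.03), Ccl17 (0.816; 4.46 against 2.34), Trem2, a receptor of lipid-laden macrophages (0.805; -0.43 against -1.99), Lat (0.789), Ccl9 (0.754; 1.28 against -0.26) and Fcgr3 (0.724). The same array was the low one for Prol1 (0.770) and Heatr3 (0.718). Replicate 4 was high for Acot1 (0.737) and low for Ifit3 (0.804) and Magohb (0.714). Acot1 lay at 2.15 on replicate 4 and at 1.92 to 1.98 on the others, still above all NRCWE-045 arrays.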

How the results depend on the processing

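The slide as a fixed block gave 21 calls (17 shared with the 127), the scanner's processed signals 3, array weights 0, the 8 arrays alone 0 and log2 Cy5 after Aquantile (added after seeing the data) 0; the deposited table, no dim-probe filter, the stricter filter and probe means gave 100, 117, 136 and 91. Aquantile leaves each array's ratios as they are, so it gave 127 again. Leaving out 1 array gave 0 to 436 calls. Also chosen after seeing the data, a fit without NRCWE-045 replicates 1 and 2, whose lone remaining array is assumed to vary like the other groups, gave 65 calls, 53 of them higher and 6 shared, and a fit with Rn4.5s as covariate gave 0 (890 units, 3.03%, at an unadjusted p under 0.05, limma). With the scores, the count of 0 became 6 with the deposited table, 30 with the 8 arrays alone, 5059 with array weights, and 0 to 249 when 1 array was left out; the slide block, processed signals, both filters, probe means, Cy5 alone, either score alone and Rn4.5s kept it at 0. The cause of these shifts was not tested. The count for the difference between doses was 0 under every alternative run. The liver score ranged from -3.50 to -1.20 over its alternatives, and without 1 array its smallest possible exact p is 0.0571 or 0.0952, above the threshold; it differed by -3.35 to -1.20 there. The fat score kept its sign throughout, from -4.49 to -0.91. The sign was followed for the 116 named genes with an unadjusted p under 0.05. The other named genes were not followed over all alternatives. With 1 array left out, Ccl2, Timp1, Col1a1 and Chil3 took both signs. Of 2530 values of the 116, 12 changed sign: Arg1 (-1.48 to 0.089 with 1 array left out, positive without NRCWE-045 replicate 2; 0.044 without replicates 1 and 2) and within slide 1 (0.26); 6330415B21Rik with Cy5 alone (0.20); Adipoq (0.56), Pck1 (0.0087) and Ltf (0.41) without replicates 1 and 2; and within slide 1 Cfap126 (0.11), Loxl1 (-0.14), Sod2 (0.18), Ebp (0.0092) and Tef (0.18). No paired analysis was possible because the replicate numbers follow deposit order and the labels' sample numbers do not repeat between groups. Dim probes limit the liver genes: several are known only as bounds with NRCWE-043.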
